A study of Xenopus laevis with 6 samples.

Results

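The bone morphogenetic protein (BMP) and transforming growth factor beta (TGF-beta) pathway genes were followed in poly(A) RNA of whole *Xenopus laevis* embryos at NF stage 32. The members were taken by symbol alone, as every row whose symbol without its L or S ending begins with bmp, smad, gdf, tgfb, acvr or id plus a single digit, or is *nog*, *chrd*, *fst*, *grem1*, *szl*, *bambi*, *nodal* or *lefty*. This gave 105 of the 35773 gene models, under 56 symbols, with 54 L copies, 51 S copies and 49 complete pairs. L and S name the copies of a gene on the chromosome sets that the ancestors of this allotetraploid frog brought together. By role, 37 members were ligands, 26 receptors, 8 receptor-regulated Smads, 4 common Smads, 5 inhibitory Smads, 13 extracellular antagonists or modulators and 6 Id genes. The other 6 were caught by the prefix only, as copies of *bmp2k* (a kinase), *tgfb1i1* (an adaptor of focal adhesions) and *tgfbrap1* (a receptor-associated protein). *id1* was not analysed here.

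There were 6 libraries, 2 from control embryos, 2 from embryos injected with *kdm5c* MO and 2 from embryos injected with *kdm3a* MO. A morpholino oligonucleotide (MO) is an antisense oligonucleotide. The *kdm5c* MO blocks translation of the mRNA of a histone H3K4 demethylase, and the *kdm3a* MO is directed at the gene of another histone demethylase. The labels place the injections at the 2-cell stage while the methods name the 1-cell stage for the *kdm5c* MO, and the labels do not say whether control embryos were injected. The *kdm3a* MO libraries (3 and 4) carry a later date in their titles than the other libraries (1 and 2 of each group), so *kdm3a* MO and that later date cannot be told apart. Nothing says that the libraries of a group came from separate clutches, so p-values measure only the spread between these libraries, which may be technical.

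BMP, TGF-beta, activin and Nodal ligands bind pairs of type I and type II receptor kinases at the cell surface. The type I receptor phosphorylates Smad1, Smad5 and Smad9 in the BMP branch or Smad2 and Smad3 in the TGF-beta and activin branch, and these enter the nucleus with the common partner Smad4. Chordin, noggin, gremlin and follistatin bind ligands outside the cell, whereas Smad6 and Smad7 dampen the signal inside it. In the *Xenopus* gastrula the balance of BMP ligands and organizer antagonists patterns the dorsoventral axis, and BMP signalling later takes part in neural crest, eye and blood development. The *id* genes, which encode inhibitors of basic helix-loop-helix factors, are well-known direct targets of BMP signalling.

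The libraries held 12838245 to 20217436 counts, and 3 counts corresponded to 0.143 to 0.303 CPM (counts of each library scaled to the same total), a limit that covers counting error only. Levels below are CPM scaled with TMM factors (trimmed means of M values). Between 89.7% and 95% of counts of 20 or fewer were even, so fewer fragments than counts were seen. Markers of all 7 tissues examined were detected, some of them only near the floor. None of their genes in the count file was at 0 in every library, but neither was any member, so that check says little. The liver and endoderm markers were mostly *darmin.L* in every library (458 to 2040 CPM, of sums of 642 to 2270). In control 1 *darmin.L* was at 657 CPM, with *ttr.L* at 0. Control 1, *kdm5c* MO 1 and *kdm3a* MO 3 each stood apart from the other libraries in some of these values. Summed skeletal muscle markers (12 genes) ranged from 4750 CPM in control 1 to 41100 in *kdm5c* MO 1, with 12800 in control 2, 12600 in *kdm5c* MO 2, 25500 in *kdm3a* MO 3 and 12700 in *kdm3a* MO 4. Summed blood markers (10 genes) were at 7.37 CPM in control 1 and 43.7 to 265 in the others. Those of epidermis (14 genes) were at 10500 CPM in *kdm3a* MO 3 and 17000 to 28000 in the others. *kdm5c* MO 1 had a TMM factor of 0.71, while those of the other libraries were 1.02 to 1.16. In RNA of whole embryos fewer cells of a type and less RNA per cell cannot be told apart. As a check of the labels, *kdm5c.L* was at 115 and 108 CPM in controls and, higher in both libraries, at 142 and 129 in *kdm5c* MO (log2 fold change 0.28, SE 0.61). Its raw counts were lower in *kdm5c* MO (1407 and 1702) than in controls (1723 and 1849), so this order depends on the TMM scaling. *kdm5c.S* was at 61.2 and 62.6 CPM in controls and 34.6 and 65.2 in *kdm5c* MO (-0.31, SE 0.64), with overlapping groups. *kdm3a.L* was at 122 and 78.3 CPM in controls and 409 and 374 in *kdm3a* MO. *kdm3a.S*, at 262 and 146 in controls and 432 and 239 in *kdm3a* MO, overlapped. Since an MO can act without lowering mRNA, the knockdown is not tested by these values.

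Of the 105 members, 90 passed the filter on low counts over the 6 libraries. The 15 that did not were *acvr1c.S*, *bmp10.L*, *bmp10.S*, *bmp15.L*, *bmp2k.L*, *bmp5.S*, *bmp6.S*, *bmp7.2.L*, *bmp7.2.S*, *bmp8.L*, *bmp8.S*, *gdf15.S*, *gdf7.S*, *nodal.L* and *nodal.S*, with at most 34 counts or 2.3 CPM in any library. Among them, *nodal.L* and *nodal.S*, copies of a Nodal ligand gene, had 0 counts in 4 and 3 of the 6 libraries. The numbered nodal genes, such as *nodal1*, are not members. In all, 21 members were at 0 in at least 1 library. Members took 0.412% and 0.196% of all counts in controls, 0.478% and 0.358% in *kdm5c* MO and 0.31% and 0.228% in *kdm3a* MO. The copy *smad4.1.S* made up much of this, since without it the shares lay between 0.147% and 0.246%.

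In *kdm5c* MO against control embryos, 88 members were tested and 0 passed both an FDR below 0.01 and a change above 4-fold in edgeR's exact test, against a background of 0% of the 26152 genes tested. With DESeq2 and with edgeR's quasi-likelihood test 0 members passed as well. Without adjustment, 1 member (*chrd.S*) was lower at p below 0.05 (background 1.01%) and 0 were higher (background 3.29%). Their log2 fold changes spanned -2.65 to 1.88, 54 below and 34 above zero and a median of -0.15, beside -0.02 over all genes. In 19 members both *kdm5c* MO libraries were lower than each control (21.6%, background 17.9%), and in 8 they were higher than each (9.09%, background 17.7%).

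In *kdm3a* MO against the same controls, 88 members were tested and 0 passed both limits, against a background of 0.125%. At an unadjusted p below 0.05 in edgeR's exact test, 1 member (*tgfbr1.L*) was lower (background 1.28%) and 1 (*gdf15.L*) higher (background 1.92%). Of the log2 fold changes, 49 were below and 39 above zero, with a median of -0.04 beside -0.01 over all genes. Groups did not overlap in 10 members that were lower, or 11.4% (background 15%), and in 15 that were higher, or 17.0% (background 17.1%). Both comparisons use the same 2 control libraries and are not independent.

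Between the morphants, 85 members were tested and 0 passed both limits (background 0.0537%). In this comparison 1 member (*smad4.1.S*) was lower in *kdm3a* MO at an unadjusted p below 0.05 in edgeR's exact test (background 3.13%), and 0 were higher (background 1.52%). There were 27 log2 fold changes below and 58 above zero, with a median of 0.22 beside 0.03 over all genes. Levels did not overlap in 5 members that were lower in *kdm3a* MO, or 5.88% (background 15.9%), and 15 that were higher, or 17.6% (background 18.4%).

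**Figure D1:**
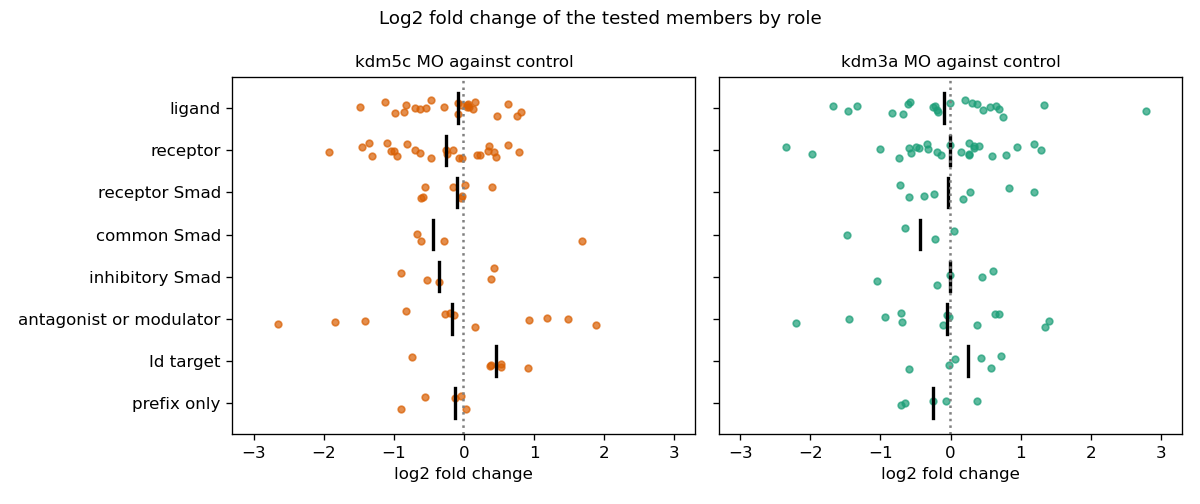
Log2 fold change (horizontal axis) of each tested member (dots) against the 2 controls, by role (rows), for kdm5c MO (left) and kdm3a MO (right). Black ticks are medians of a role and the dotted line is the median of all genes tested. In kdm5c MO the receptor median was -0.26 and the Id median 0.45, and the antagonists spread from -2.65 to 1.88.

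The *bmp4* copies had log2 fold changes near zero in *kdm5c* MO, and the *bmp7.1* copies were spread within the controls. *bmp4.L*, a ventralizing signal of the gastrula and later a signal of the dorsal eye, was at 32.6 and 18.0 CPM in controls, 32.3 and 19.6 in *kdm5c* MO and 54.8 and 26.0 in *kdm3a* MO. *bmp4.S* was at 33.9 and 13.5, 23.8 and 24.8, and 37.3 and 18.1 CPM in the same order. The groups overlapped for both copies, whose log2 fold changes in *kdm5c* MO were 0.04 and 0.04, with standard errors (SE) of 0.67 and 0.70. *bmp7.1.L*, whose product pairs with BMP4 or BMP2 in heterodimers, was at 73.4 and 40.8 CPM in controls, 68.4 and 56.5 in *kdm5c* MO and 48.8 and 49.0 in *kdm3a* MO. *bmp7.1.S* was at 26.2 and 5.67, 14.7 and 8.26, and 10.9 and 10.5 CPM. All 4 morphant libraries lay between the controls for both *bmp7.1* copies.

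*bmp2*, a close relative of *bmp4*, differed between its copies. *bmp2.L* was at 15.7 and 2.92 CPM in controls, 7.47 and 3.94 in *kdm5c* MO and 8.28 and 7.91 in *kdm3a* MO. *bmp2.S* was at 7.17 and 5.73, 16.9 and 4.93, and 23.0 and 10.1 CPM. Both *kdm3a* MO libraries exceeded both controls for *bmp2.S* (log2 fold change 1.33, SE 0.77, unadjusted p 0.0939 and adjusted p 1 in edgeR's exact test), while those of *bmp2.L* lay between the controls.

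Of 23 ligand copies tested in *kdm5c* MO, 13 had a log2 fold change below and 10 above zero, with a median of -0.09. The lowest was *gdf6.S*, a ligand known for dorsal eye patterning, with 288 and 142 counts in controls, 22 and 100 in *kdm5c* MO and 150 and 152 in *kdm3a* MO. Both *kdm5c* MO libraries were below both controls, with *kdm5c* MO 1 by far the lowest (log2 fold change -1.48, SE 0.93, unadjusted p 0.128 by edgeR's exact test). Its partner *gdf6.L* was at 11.1 and 7.6 CPM in controls and 5.45 and 12.7 in *kdm5c* MO, with overlapping groups. The highest was *tgfb1.S*, a copy of the TGF-beta ligand best known in wound and immune responses, at 1.07 and 8.77 CPM in controls and 6.87 and 10.5 in *kdm5c* MO. *tgfb1.L* was at 11.1 and 17.1 CPM in controls, 19.1 and 24.4 in *kdm5c* MO and 29.7 and 17.0 in *kdm3a* MO. The *kdm5c* MO libraries exceeded both controls for this copy (log2 fold change 0.63, SE 0.67). Raw counts overlapped (189 and 322 against 165 and 292 in controls), so this order depends on the TMM scaling. The *tgfb2* copies, which encode another TGF-beta ligand, overlapped between *kdm5c* MO and control embryos, at 3.84 to 17.8 CPM over the 4 libraries.

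In *kdm3a* MO the ligand extremes were low in counts. *gdf15.L*, which encodes a stress-responsive cytokine, had 2 and 4 counts in controls, 0 and 12 in *kdm5c* MO and 14 and 30 in *kdm3a* MO. Its fitted log2 fold change in *kdm3a* MO was 2.78 (SE 1.29, unadjusted p 0.0418 and adjusted p 1, edgeR's exact test), a value that depends on few reads. It lay between 1.76 and 3.41 when each library was left out in turn, and was 1.76 without *kdm3a* MO 4. The lowest ligand was *gdf9.S*, a copy of an oocyte growth factor gene, at 1.27 and 0.819 CPM in controls and 0.381 and 0.27 in *kdm3a* MO (log2 fold change -1.68, SE 1.13). Both extremes were thus at or below 2.03 CPM in every library.

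Receptors were more often below than above zero in *kdm5c* MO. Of 25 copies tested, 17 had a log2 fold change below zero (median -0.26), 11 (44%, background 17.9%) had both *kdm5c* MO libraries below both controls and 1 (4%, background 17.7%) had both above. In *kdm3a* MO the receptor copies divided evenly, with 13 below and 12 above zero (median -0.01), with 3 lower (12%, background 15%) and 6 higher (24%, background 17.1%) without overlap. No receptor passed the limits in either comparison. On the log2(CPM + 0.5) scale, the median receptor difference was -0.51 between *kdm5c* MO 1 and control 1 but -0.09 between *kdm5c* MO 2 and control 2. Without *kdm5c* MO 2 the median of all tested members was -0.54, beside -0.23 over all genes. Without *kdm5c* MO 1 it was -0.0499, beside -0.0492 over all genes. Skeletal muscle markers were highest in *kdm5c* MO 1 (all 12 genes had a log2 fold change above zero in *kdm5c* MO), and their part in the receptor levels was not tested.

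The type I BMP receptors *bmpr1a* and *bmpr1b* and the type II receptors *bmpr2* (BMP) and *acvr2b* (activin and BMP) are described together, a choice made after their values were seen. *bmpr1a.L* had 190 and 134 counts in controls, 14 and 86 in *kdm5c* MO and 30 and 182 in *kdm3a* MO. *bmpr1a.S* had 433 and 336, 54 and 249, and 96 and 514 counts. Levels were thus lowest in *kdm5c* MO 1 and *kdm3a* MO 3 for each copy, while *kdm3a* MO 4 was within the control range for *bmpr1a.L* and above it for *bmpr1a.S*. In CPM, *bmpr1a.L* was at 10.3 ± 3.46 (SD, n = 2) in controls and 3.97 ± 3.61 in *kdm5c* MO (log2 fold change -1.36, SE 0.99, unadjusted p 0.187 by edgeR's exact test). *bmpr1b.S* was at 24.5 and 11.2 CPM in controls and 6.87 and 9.86 in *kdm5c* MO (-1.09, SE 0.76). *bmpr2.L*, at 16.7 and 14.9 CPM in controls, 9.7 and 10.8 in *kdm5c* MO and 15 and 17.0 in *kdm3a* MO, had closely spaced replicates, but its log2 fold change of -0.62 was below its SE of 0.69. *acvr2b.S* was at 78.5 and 46.0 CPM in controls, 27.0 and 44.1 in *kdm5c* MO and 31.5 and 53.9 in *kdm3a* MO.

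All 8 copies of these genes had both *kdm5c* MO libraries below both controls, with log2 fold changes from -1.36 to -0.16. They were picked with this in view, so the count was fixed by the choice and cannot be read against the background of 17.9%. Among the related receptor copies left out, *acvr1.S* was also lower without overlap. *acvr1.L* and *acvr2a.S* overlapped with the controls, and *acvr2a.L* was higher than both. In *kdm3a* MO the log2 fold changes of the 8 picked copies lay between -1.01 and -0.01. For 7 of the 8, the lowest library was *kdm5c* MO 1 or *kdm3a* MO 3. These libraries were the lowest in 24.5% and 15.4% of all genes tested, and in 28.9% and 17.8% of the members.

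**Figure D2:**
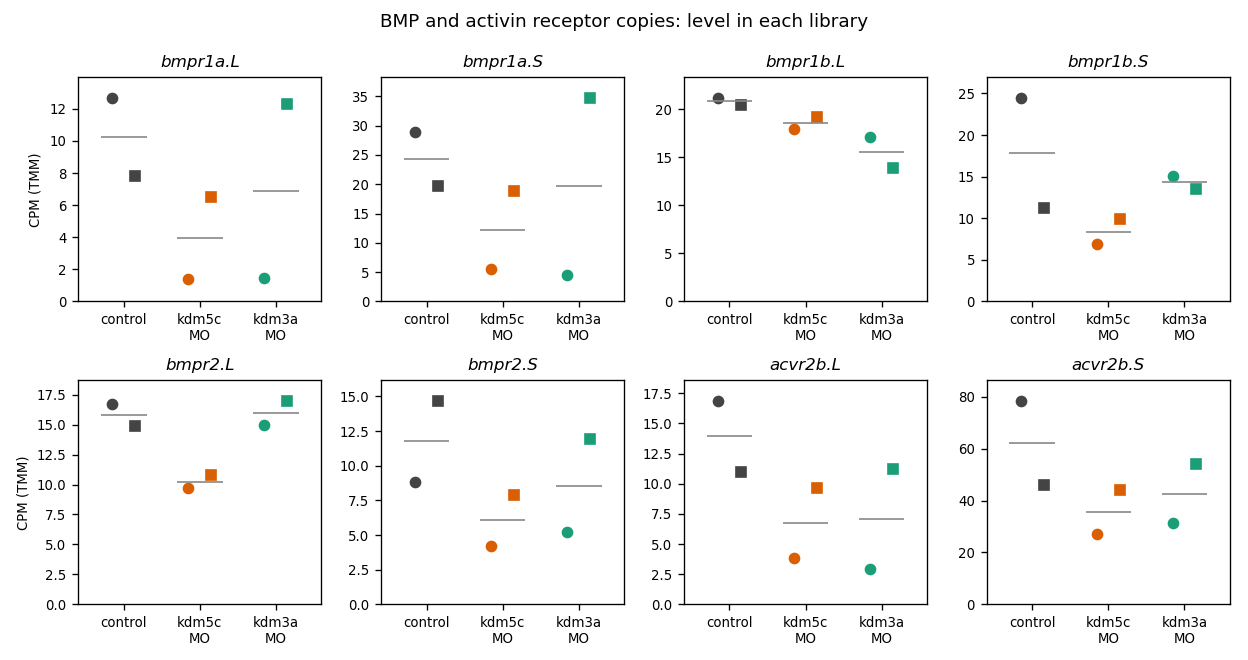
TMM-scaled CPM (vertical axis, each panel its own scale from 0) of the L and S copies of bmpr1a, bmpr1b, bmpr2 and acvr2b in each library. Circles are the first and squares the second library of each group, and grey lines are group means. The kdm5c MO libraries lie below both controls in all 8 panels, and kdm3a MO 3 is at 1.43 CPM for bmpr1a.L against 12.3 in kdm3a MO 4.

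*tgfbr1*, the type I TGF-beta receptor gene, showed the strongest contrast between copies. *tgfbr1.L* had 377 and 85 counts in controls, 36 and 56 in *kdm5c* MO and 25 and 71 in *kdm3a* MO. Its levels of 25.3 and 4.97 CPM in controls, 3.64 and 4.25 in *kdm5c* MO and 1.19 and 4.8 in *kdm3a* MO show a high value in control 1, with control 2 little above the morphants. The log2 fold change was -1.93 in *kdm5c* MO (SE 0.96, unadjusted p 0.0581 by edgeR's exact test) and -2.34 in *kdm3a* MO (SE 1.08, unadjusted p 0.0468 and adjusted p 1). Without control 1 the value in *kdm3a* MO was -0.73 (adjusted p 1 by edgeR's exact test). *tgfbr1.S* had 167 and 265 counts in controls, 153 and 247 in *kdm5c* MO and 433 and 473 in *kdm3a* MO. In *kdm3a* MO it went the other way, with both libraries above both controls (log2 fold change 0.95, SE 0.65). Its value in *kdm5c* MO was 0.36 after TMM scaling (SE 0.68), with overlapping groups. The L copy took 69.3% of *tgfbr1* counts in control 1, 24.3% in control 2 and 5.46% to 19.0% in the morphants.

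The other receptor extremes were *bambi.L* and *acvrl1.L*. *bambi*, a pseudoreceptor without a kinase domain that is co-expressed with *bmp4*, was at 44.1 and 30.1 CPM in controls, 93.6 and 33.6 in *kdm5c* MO and 64.7 and 49.4 in *kdm3a* MO for its L copy. A high *kdm5c* MO 1 gave the highest receptor value of that comparison (0.78, SE 0.72), and *bambi.S*, at 46.4 CPM, was also highest in *kdm5c* MO 1. *acvrl1.L*, a type I receptor gene of endothelial cells, had the highest receptor value in *kdm3a* MO (1.29, SE 1.67), with 0 and 2.22 CPM in controls and 2.81 and 2.84 in *kdm3a* MO. *acvr2a.L*, a type II activin receptor copy with both groups of morphants above the controls, was at 20.1 and 15.5 CPM in controls, 34.5 and 20.2 in *kdm5c* MO and 56.8 and 26.0 in *kdm3a* MO. Its value in *kdm3a* MO was 1.19 (SE 0.65, unadjusted p 0.0775 by edgeR's exact test), and it was named after its values were seen.

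Among the receptor-regulated Smads, 6 of 8 copies had a log2 fold change below zero in *kdm5c* MO (median -0.10). They ran from *smad1.S* at -0.61 to *smad9.L* at 0.40, both BMP-branch transducers. *smad1.S* was at 13.3 and 11.5 CPM in controls, 6.06 and 10.1 in *kdm5c* MO and 6.23 and 15.1 in *kdm3a* MO, again lowest in *kdm5c* MO 1 and *kdm3a* MO 3. In *kdm3a* MO the range ran from *smad3.S*, a TGF-beta and activin transducer, at -0.72 to *smad9.L* at 1.19. *smad9.L* was at 1.61 and 8.42 CPM in controls and 14.2 and 9.47 in *kdm3a* MO, so both *kdm3a* MO libraries exceeded the controls, which themselves differed widely (unadjusted p 0.249 by edgeR's exact test).

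*smad4.1.S*, a copy of the common Smad gene, had 27945 and 1838 counts in controls, 46126 and 21569 in *kdm5c* MO and 12893 and 1600 in *kdm3a* MO. In CPM these were 1870 and 108, 4660 and 1640, and 613 and 108, a 43.3-fold range. Control 2 and *kdm3a* MO 4 were low and *kdm5c* MO 1 was high, and the replicates of every group lay far apart. *kdm3a* MO was below *kdm5c* MO without overlap (log2 fold change -3.14, SE 0.91, unadjusted p 0.002 and adjusted p 0.414 in edgeR's exact test). With DESeq2 the adjusted p was 0.0294, short of the limit of 0.01, and over the alternatives of the same comparison it ran up to 1 (edgeR or DESeq2). The value was -4.86 without *kdm3a* MO 3 and -2.18 without *kdm5c* MO 1. Against controls it was 1.68 in *kdm5c* MO (SE 1.19) and -1.48 in *kdm3a* MO (SE 1.28), with overlapping groups. *smad4.1.L* did not share this range, with 1162 and 636, 450 and 390, and 697 and 608 counts. *smad4.2.S*, the lowest common Smad in *kdm5c* MO (-0.67, SE 0.82) and the highest in *kdm3a* MO (0.05, SE 0.76), was at 6.9 and 15.7 CPM in controls, 6.06 and 8.19 in *kdm5c* MO and 12.3 and 11.8 in *kdm3a* MO.

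Among the inhibitory Smads, *smad6.L* and *smad6.S* lay above zero and both *smad7* copies below it in *kdm5c* MO, but with library size as the only scaling 4 of the 5 inhibitory Smad copies were below zero. *smad6.S*, whose product acts chiefly on the BMP branch, was at 22.0 and 21.3 CPM in controls, 34.1 and 22.4 in *kdm5c* MO and 42.1 and 25.4 in *kdm3a* MO. *smad6.L* was at 17.5 and 24.9, 30.7 and 26.4, and 35.8 and 23.6 CPM. The *kdm5c* MO libraries were above both controls for each copy (log2 fold changes 0.39, SE 0.62, and 0.43, SE 0.62), as were those of *kdm3a* MO for *smad6.S* (0.61, SE 0.61). Raw counts in *kdm5c* MO overlapped with controls for *smad6.S* (338 and 295 against 329 and 364) and *smad6.L* (304 and 348 against 261 and 426). The order in *kdm5c* MO thus depends on the TMM scaling. *smad7.L*, an inhibitor of both branches, was at 44.4 and 17.5 CPM in controls, 16.2 and 26.5 in *kdm5c* MO and 23.4 and 31.5 in *kdm3a* MO, and *smad7.S* at 32.0 and 16.4, 14.8 and 23.0, and 19.6 and 29.1 CPM. The *smad7* copies moved in parallel from library to library, and the groups overlapped. *smad6.2.L*, a further *smad6* model, had 111 and 158 counts in controls, 2 and 115 in *kdm5c* MO and 69 and 73 in *kdm3a* MO. Its log2 fold changes of -0.90 (SE 1.36) in *kdm5c* MO, where *kdm5c* MO 1 alone was low, and -1.05 (SE 0.82) in *kdm3a* MO were the lowest of the role.

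In *kdm5c* MO against control the extracellular antagonists had the widest range of log2 fold changes among the roles, from -2.65 to 1.88. Chordin, the organizer antagonist that holds BMP ligands away from their receptors, was represented by *chrd.S*, with 1617 and 86 counts in controls, 132 and 60 in *kdm5c* MO and 164 and 251 in *kdm3a* MO. In CPM these were 108 and 5.03, 13.3 and 4.55, and 7.8 and 17.0. Control 1 was far above the other 5 libraries, and control 2 lay among the morphants. The log2 fold change was -2.65 in *kdm5c* MO (SE 1.21, edgeR's exact test with unadjusted p 0.0474 and adjusted p 1) and -2.20 in *kdm3a* MO (SE 1.20, unadjusted p 0.0917). Without control 1 the value in *kdm5c* MO was 0.82. Without control 2 it was -3.60, with the far higher control 1 as the only control. Further chordin models outside the naming rule, *chrd.1.L* and *chrd.L2*, were also far highest in control 1, with 644 and 394 counts there and 14 to 118 in the other 5 libraries.

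The sizzled copies, which encode an inhibitor of chordin-cleaving proteases, were also highest in control 1. *szl.L* had 555 and 40 counts in controls, 164 and 74 in *kdm5c* MO and 211 and 216 in *kdm3a* MO. *szl.S* had 275 and 10, 40 and 16, and 60 and 61 counts. Here control 2 was the lowest library, so that the morphants lay between the controls. *bmper.L*, a BMP-binding regulator of the chordin type, had 153 and 54 counts in controls, 8 and 55 in *kdm5c* MO and 107 and 48 in *kdm3a* MO. Summed blood markers were lowest in control 1 and their part in these levels was not tested.

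Noggin, another organizer antagonist of BMP ligands that is made in notochord and dorsal neural tissue, was higher in all 4 morphant libraries than in both controls. *nog.L* was at 2.68 and 6.43 CPM in controls, 12.8 and 7.96 in *kdm5c* MO and 14.6 and 9.20 in *kdm3a* MO. *nog.S* was at 2.68 and 1.87, 5.05 and 3.56, and 7.66 and 4.60 CPM. In *kdm5c* MO *nog.L* was at 10.4 ± 3.44 CPM (SD, n = 2) against 4.56 ± 2.66 in controls (log2 fold change 1.19, SE 0.88, unadjusted p 0.194 by edgeR's exact test) and *nog.S* gave 0.92 (SE 0.97). In *kdm3a* MO the values were 1.34 (SE 0.85, unadjusted p 0.129 by edgeR's exact test) and 1.40 (SE 0.89, unadjusted p 0.132), the latter being the highest antagonist. None passed the adjusted limit. Of 86 members tested in both comparisons, 4 copies (both *nog* copies, *acvr2a.L* and *smad6.S*) had all 4 morphant libraries above both controls. Another 5 had all of them below. The share of all genes with either order was not computed, and both comparisons use the same 2 controls. Summed notochord and somite matrix markers (4 genes) were at 688 and 1330 CPM in controls, 1120 and 894 in *kdm5c* MO and 1680 and 1620 in *kdm3a* MO, and their part in the noggin levels was not tested.

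*grem1.L*, a BMP antagonist known from limb development, had 26 and 336 counts in controls, 314 and 378 in *kdm5c* MO and 522 and 161 in *kdm3a* MO. Control 1 was the only low library, and in CPM the *kdm5c* MO libraries were above both controls (log2 fold change 1.49, SE 1.03, unadjusted p 0.168 by edgeR's exact test). Their raw counts overlapped with those of controls, so this order depends on the TMM scaling. *lefty.L*, a Nodal antagonist, had 43 and 22 counts in controls, 132 and 26 in *kdm5c* MO and 58 and 40 in *kdm3a* MO, so its value of 1.88 in *kdm5c* MO (SE 1.15, unadjusted p 0.129 by edgeR's exact test), the highest of the members, came from *kdm5c* MO 1. *lefty.S* was at or below 1.88 CPM in every library. *fst.L*, whose product follistatin binds activin and BMP ligands, was at 22.1 and 11.6 CPM in controls, 17.2 and 20.4 in *kdm5c* MO and 31.5 and 21.4 in *kdm3a* MO, with overlapping groups.

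**Figure D3:**
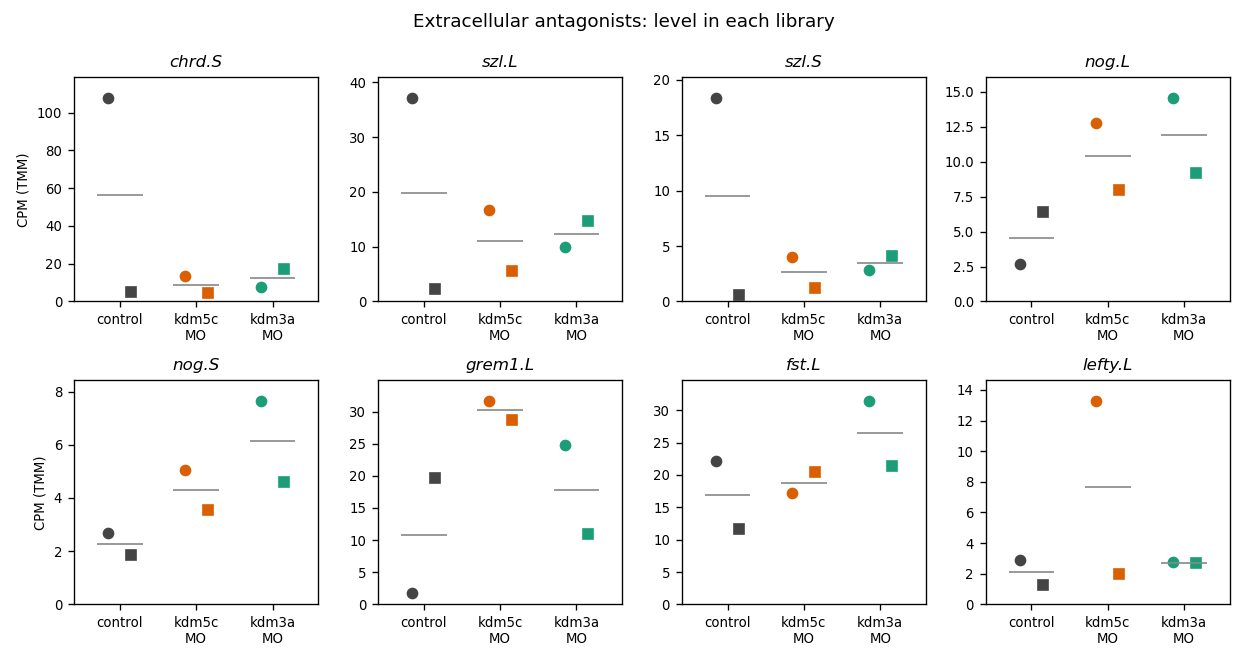
TMM-scaled CPM (vertical axis, each panel its own scale from 0) of 8 antagonist copies in each library. Circles are the first and squares the second library of each group, and grey lines are group means. Control 1 stands highest for chrd.S (108 CPM), szl.L and szl.S and lowest for grem1.L (1.74 CPM), and both nog copies are above both controls in all 4 morphant libraries.

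The Id genes were the role with the highest median in *kdm5c* MO, at 0.45, with 5 of 6 copies above zero (4 of 6 with library size as the only scaling). *id2.L* was at 89.1 and 60.5 CPM in controls, 191 and 88.7 in *kdm5c* MO and 122 and 83.4 in *kdm3a* MO. *id3.L* was at 205 and 107, 278 and 169, and 297 and 176 CPM. *id3.S* was at 268 and 142, 334 and 254, and 440 and 247 CPM. For each of these copies control 1, *kdm5c* MO 1 and *kdm3a* MO 3 were the higher libraries of their groups, and the groups overlapped. The log2 fold changes in *kdm5c* MO were 0.91 for *id2.L* (SE 0.69, unadjusted p 0.2 by edgeR's exact test), 0.53 for *id3.L* (SE 0.70) and 0.53 for *id3.S* (SE 0.68). *id2.S*, at 54.8 and 29.3 CPM in controls and 66.8 and 41.5 in *kdm5c* MO, and *id4.S*, at 76.4 and 111 in controls and 94.3 and 150 in *kdm5c* MO, gave 0.37 and 0.38. In *kdm3a* MO the median of the role was 0.25, with *id3.S* the highest at 0.72 (SE 0.68). *id4.L*, at 0.909 to 5.67 CPM over all libraries, was the lowest Id copy in both comparisons (-0.73 and -0.59).

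In *kdm5c* MO the members caught by the prefix only ran from *tgfb1i1.L* at -0.90 (7.7 and 10 CPM in controls, 3.84 and 5.61 in *kdm5c* MO) to *tgfbrap1.L* at 0.04. In *kdm3a* MO *tgfb1i1.L* was again the lowest at -0.70, and *bmp2k.S* the highest at 0.38.

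Same-numbered libraries set against each other showed how unevenly the *kdm5c* MO values arose. A shared number in the titles need not mark a pair. On the log2(CPM + 0.5) scale, *kdm5c* MO 1 against control 1 put 58 of 90 members lower and 30 higher, 10 and 4 of them past 4-fold (together 15.6%, beside 16.2% of all genes), with a median of -0.37 beside 0.01 over all genes. *kdm5c* MO 2 against control 2 put 42 lower and 47 higher, with a median of 0.07 beside -0.00193 over all genes. In the second difference only *smad4.1.S* passed 4-fold, at 3.92. The controls themselves differed more than 4-fold in 14 members (15.6%, beside 10.1% of all genes). *kdm5c* MO 2 and control 2 differed so in 1 member (1.11%, beside 0.766%).

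The share of the L copy in a pair was stable for some genes and not for others. Over the 35 pairs with at least 50 counts in every library, the difference between the highest and the lowest L share had a median of 15.9 percentage points, and ran from 1.89 to 63.8. It was under 15 points in 15 pairs and over 40 in 3, which were *bmp2*, *bmp3* and *tgfbr1*. The pairs under 15 points include *bmp2k* (1.89) and *bmp5* (14.8), whose L and S copy, respectively, had at most 2 and 8 counts in any library. For *id3* the L share lay between 40% and 45.4%, and for *smad7* between 51.6% and 58.1%. For *smad4.1*, by contrast, it was 3.99% and 25.7% in controls, 0.966% and 1.78% in *kdm5c* MO and 5.13% and 27.5% in *kdm3a* MO. The log2 fold changes of L and S copies had the same sign in 25 of 38 pairs in *kdm5c* MO (Pearson 0.29, Spearman 0.36 across pairs) and in 29 of 39 in *kdm3a* MO (0.29 and 0.41). Pairs share their libraries and are not independent, and near-identical copies can divide reads in a way the sources used here do not describe.

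**Figure D4:**
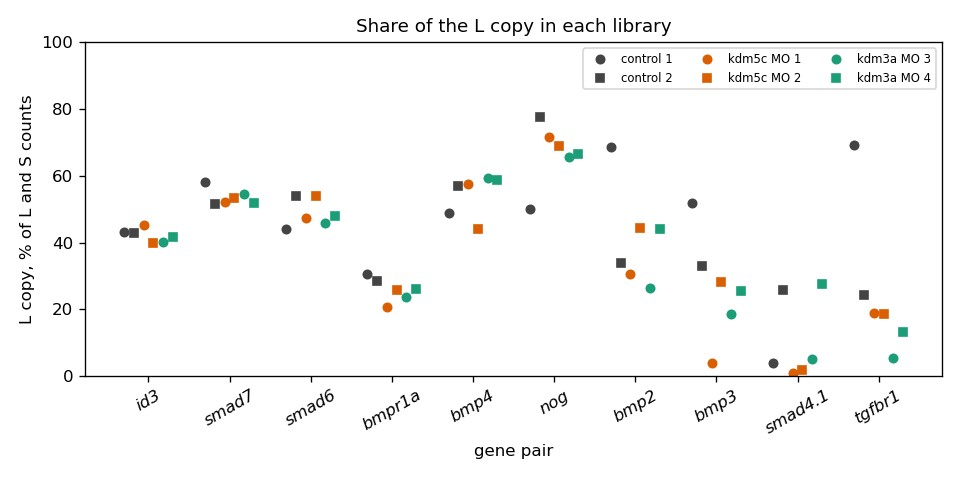
Share of the L copy (vertical axis, percent of L and S counts) in each of the 6 libraries for 10 gene pairs (horizontal axis). Colours are groups, circles the first and squares the second library of a group. The share of id3 stays between 40% and 45.4%, whereas that of tgfbr1 runs from 5.46% in kdm3a MO 3 to 69.3% in control 1.

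Pathway genes outside the naming rule (98 copies of 54 symbols, 74 past the filter) were read from a list of further ligands, modulators, intracellular regulators and targets. In *kdm5c* MO 46 of 71 tested copies had a log2 fold change below and 25 above zero (median -0.23), 0 passed both limits, and at an unadjusted p below 0.05 in edgeR's exact test 1 copy was lower (background 1.01%). This was *kcp.L*, which encodes a chordin-type modulator of BMP and TGF-beta, with 745 and 370 counts in controls, 116 and 193 in *kdm5c* MO and 516 and 492 in *kdm3a* MO (log2 fold change -1.43, SE 0.69, unadjusted p 0.0448 by edgeR's exact test). By role, 14 of 19 intracellular regulators and 15 of 23 targets were below zero.

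In *kdm3a* MO 31 of 71 outside copies were below and 40 above zero (median 0.05), 0 passed both limits, and 2 copies were lower at an unadjusted p below 0.05 (background 1.28%). *tgif2.L*, a transcriptional repressor that binds Smads, had 642 and 130 counts in controls and 68 and 126 in *kdm3a* MO (-2.12, SE 0.98, unadjusted p 0.0445 by edgeR's exact test). *ventx1.2.L*, a ventral homeobox target of BMP signalling, had 203 and 6 counts in controls, 50 and 2 in *kdm5c* MO and 2 and 10 in *kdm3a* MO (-4.17, SE 1.62, unadjusted p 0.033 by edgeR's exact test). Both were far highest in control 1, as were *gata2.L*, a BMP target of epidermis and blood precursors, with 1225 counts against 104 to 316 in the other 5 libraries, and *chrd.S*. Below the filter, *admp.L* had 53 counts in control 1 and 0 elsewhere, and *foxh1.L* 277 and at most 4. Control 1 was the highest library in 26.7% of members (22.8% of all genes tested) and the lowest in 17.8% (27.1%). Every log2 fold change against controls rests on control 1 and control 2 alone. Between the morphants, *ltbp3.L*, whose product tethers latent TGF-beta to the matrix, had 16 and 80 counts in *kdm5c* MO and 543 and 268 in *kdm3a* MO (2.5, SE 0.81, unadjusted p 0.00403 and adjusted p 0.508 in edgeR's exact test). Its control counts of 98 and 190 lay between the groups. The other copy, *ltbp3.S*, had 2 and 36 counts in controls, 16 and 50 in *kdm5c* MO and 204 and 53 in *kdm3a* MO. Its morphant groups overlapped (1.28, SE 0.96), and its log2 fold change in *kdm5c* MO against controls was 1.26, beside -1.20 for *ltbp3.L*.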

How the data were processed

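Total RNA of whole embryos was poly(A)-enriched and sequenced. The authors mapped the reads to cDNA sequences with BWA (version 0.7.10 in the submitters' notes) and deposited raw counts per gene model, not normalized. How pairs and multiply matching reads were counted, and the build, are not given in the sources used here. No sequences or positions are printed, since none were read for these genes.

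Groups and numbers come from the sample titles (control 2 is numbered 3 in its description). Genes past filterByExpr were scaled by TMM, and edgeR 4.0.16 gave the exact test (R 4.3.3; classic dispersions, only the 4 libraries of a comparison), with Benjamini-Hochberg adjustment over all genes tested, an FDR below 0.01 and a change above 4-fold, the test and limits named in the study's methods. The biological coefficient of variation was 0.647, 0.622 and 0.583 in the 3 comparisons. SEs come from a negative binomial fit with the same dispersions, and CPM from TMM over all 6 libraries. Values per library on a log scale add 0.5 CPM. The procedure was run on simulated data with less spread between libraries and larger changes than were fitted for any member here. That run therefore does not show which changes of members could be found in these libraries.

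Members and lists were chosen with earlier results of these data known. Named are members at an unadjusted p below 0.05 against controls, all copies of the core ligand, antagonist, Id and inhibitory Smad genes, and the lowest and highest copy of each role. Others were named after their values were seen, namely *acvr2a.L*, *bmper.L*, *bmpr1a*, *bmpr1b*, *bmpr2*, *acvr2b*, *fst.L*, *gdf6.L*, *grem1.L*, *smad4.1.L*, *szl*, *tgfbr1.S* and the outside genes. Alternatives were median-of-ratios factors, library size alone, other filters, quasi-likelihood tests, DESeq2 1.42.0, all 6 libraries, summed copies, halved counts and each library left out. A gene of the outside list is not reported here.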

Additional observations from a re-analysis of the deposited data

Results flagged for a closer look

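*gdf9.L*, a copy of an oocyte growth factor gene, had both *kdm5c* MO libraries above and both *kdm3a* MO libraries below both controls, so the morphants lay on opposite sides. It was the only such case among the 86 members tested in both comparisons. The share of all genes on opposite sides was not computed, so this count has no background to be read against. Its levels were 1.61 and 1.52 CPM in controls, 1.62 and 1.67 in *kdm5c* MO and 0.571 and 1.22 in *kdm3a* MO, from 12 to 26 counts a library. The log2 fold change in *kdm5c* MO against controls was only 0.07 (SE 1.09). Raw counts were lower in *kdm5c* MO (16 and 22) than in controls (24 and 26), so that side depends on the TMM scaling. The log2 fold change of *kdm3a* MO against *kdm5c* MO was -0.888 (SE 1.08), with unadjusted and adjusted p of 0.437 and 1 by edgeR's exact test, so the difference did not pass the limits.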

How the results depend on the processing

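Under 10 alternatives for *kdm5c* MO, 9 for *kdm3a* MO and 9 between the morphants, 0 members passed both limits. With a library left out, 1 group holds a lone library that is assumed to vary like the other group, so calls from those fits are not given. The member medians then ran from -0.54 to -0.0499 (*kdm5c* MO), -0.21 to 0.10 (*kdm3a* MO) and 0.0507 to 0.45 (between morphants). With library size alone they were -0.43 in *kdm5c* MO (68 members lower, 20 higher, median of all genes -0.34) and 0.53 between morphants (all genes 0.34). Relative to all genes, 17 of 25 receptor copies were lower in *kdm5c* MO under either scaling, by count alone, and the ligand median went from -0.07 to 0.01. Gene values and role counts under the alternatives were added after the data were seen. *chrd.S* in *kdm5c* MO ran from -3.64 to 0.82, the latter without control 1. With the replicate block in *kdm5c* MO 0 members passed (median -0.15, lowest adjusted p 0.891 by edgeR's quasi-likelihood test) and *chrd.S* was at -1.61. Deviations of control 1 and *kdm5c* MO 1 from their group means correlated at 0.24 over all genes and 0.48 over members. With 2 libraries a group, the deviations of the other pair mirror these and add nothing. Members at an unadjusted p below 0.05 numbered 0 to 2 over the settings that kept every library.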
